A study of Mus musculus with 27 samples.

Results

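The 494 regions described here are the widest stretches of histone acetylation in the resting hepatocyte list: single H3K27ac peaks of wild-type hepatocytes in normoxia that span at least 30 kb. They are 494 of the 5655 peaks of that list (8.74% of its peaks) and hold 23.5 Mb, or 28.9% of the bases it covers. CUT&RUN, in which an antibody directs DNA cutting to the places its target occupies, was done on primary mouse hepatocytes that were put into culture conditions 24 hours after isolation. The mice were wild-type (WT) or Alb-cre:Aclyf/f (labelled AclyKO, here KO), in which Cre is driven by the albumin promoter and is meant to remove the floxed part of Acly in hepatocytes. The groups used here are hypoxia-reperfusion (HR) cultures of both genotypes and WT normoxia, each probed for H3K27ac and H3K9ac, and WT HR probed with an anti-FLAG antibody under the sample name Acly. There was 1 library per antibody and condition, and the samples include no KO normoxia CUT&RUN library. The sources used here do not tell how WT cells came to carry a FLAG tag. The labels do not say how many animals gave the cells. With 1 library on each side of every comparison there is no replicate check and no test of condition or genotype. The lists give no read totals, so their depth is unknown.

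Acetylation of histone H3 at lysine 27 (H3K27ac) marks active enhancers and active promoters, and long unbroken stretches of it are known to lie at genes tied to the identity of a cell type. Acetylation at lysine 9 (H3K9ac) is found mainly around the start sites of active genes. ATP citrate lyase (ACLY) splits citrate into acetyl-CoA and oxaloacetate, and acetyl-CoA is the acetyl donor that histone acetyltransferases use. The hepatocyte is the parenchymal cell of the liver, which makes most plasma proteins, bile acids and lipoproteins.

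The domains were chosen by their width in the WT normoxia H3K27ac list, so width and signal in that list are given as a description, and no list can cover more of them than the list that chose them. Widths ran from 30030 to 182960 bp with a median of 41480 bp, 155 domains reached 50 kb and 10 reached 100 kb. The widest peak left out spanned 29930 bp. The maximum signal inside a domain, on the authors' scale, ran from 12.6 to 206.0 with a median of 72.8, beside a median of 61.5 in the 5161 narrower peaks. The 5 domains just inside the limit (Atp13a3, Palmd, Klf12, Sqle/Washc5 and a second Slc22a23 domain, 30030 to 30080 bp) were 73.7% to 92.2% covered in WT HR H3K27ac and 41.9% to 96.9% in KO HR H3K27ac. The 5 peaks just outside it (among them Crkl, Stard13 and Midn/Atp5d, 29670 to 29930 bp) were 67.2% to 100.0% and 41.0% to 96.6% covered, so values near the limit overlap.

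Several domains hold genes of microRNAs, short RNAs that pair with messenger RNAs through the seed at bases 2 to 8. Of 1228 annotated miRNA genes, 30 (2.44%) lay in 27 domains. RefSeq sequences (GRCm38.p6, the mm10 build) were found for 25 of these genes, with 40 mature forms and 37 different seeds. The domains hold the 4 genes of the miR-29 family, Mir29a and Mir29b-1 in one domain (chr6:31055941-31224210) and Mir29b-2 and Mir29c in another (chr1:195009591-195040930). They also hold Mir192 and Mir194-2, which are abundant in liver, in a domain at Ehd1 and Atg2a (chr19:6261661-6301910), Mir21a in the domain at Vmp1 (chr11:86571951-86695110), Mir30a in a domain with no coding gene (chr1:23253641-23290340) and Mir101b in the domain at Rcl1 (chr19:29115821-29151060). The mature sequences of these miRNAs are shown 5′ to 3′ with the seed in capitals, because the miR-29 members share 1 seed across both domains while the others each have their own.
miR-29a-3p: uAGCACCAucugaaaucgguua
miR-29b-3p: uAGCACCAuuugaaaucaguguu
miR-29c-3p: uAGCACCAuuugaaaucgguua
miR-192-5p: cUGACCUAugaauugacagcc
miR-194-5p: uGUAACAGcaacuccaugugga
miR-21a-5p: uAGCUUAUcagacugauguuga
miR-30a-5p: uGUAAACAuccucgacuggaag
miR-101b-3p: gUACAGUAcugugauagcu

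The domain of Mir29a and Mir29b-1 was the second widest, at 168270 bp, and holds the noncoding gene Lncpint and no coding gene. It was 79.8% covered in WT normoxia H3K9ac, 99.0% in WT HR H3K27ac, 76.6% in WT HR H3K9ac, 93.2% in KO HR H3K27ac and 16.2% in KO HR H3K9ac. Its H3K9ac lay in 3 pieces in WT normoxia, 4 in WT HR and 5 in KO HR, so the lists differed more in coverage than in the number of pieces. The other miR-29 domain, of 31340 bp, was 67.0%, 95.7%, 49.7%, 76.8% and 22.5% covered in the same order of lists. The mature sequences of Mir29b-2 and Mir29c lay inside an H3K9ac peak in WT normoxia and outside the H3K9ac peaks of both HR lists. The domain of Mir192 and Mir194-2 differed from these in that its H3K9ac coverage was higher in WT HR (92.2%) than in WT normoxia (77.7%). It was 84.0% covered in WT HR H3K27ac, 57.1% in KO HR H3K27ac and 29.9% in KO HR H3K9ac. The Mir30a domain was 53.8% covered by H3K9ac in WT normoxia and 15.4% in WT HR, with H3K27ac at 97.1% in WT HR and 81.1% in KO HR.

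**Figure D1:**
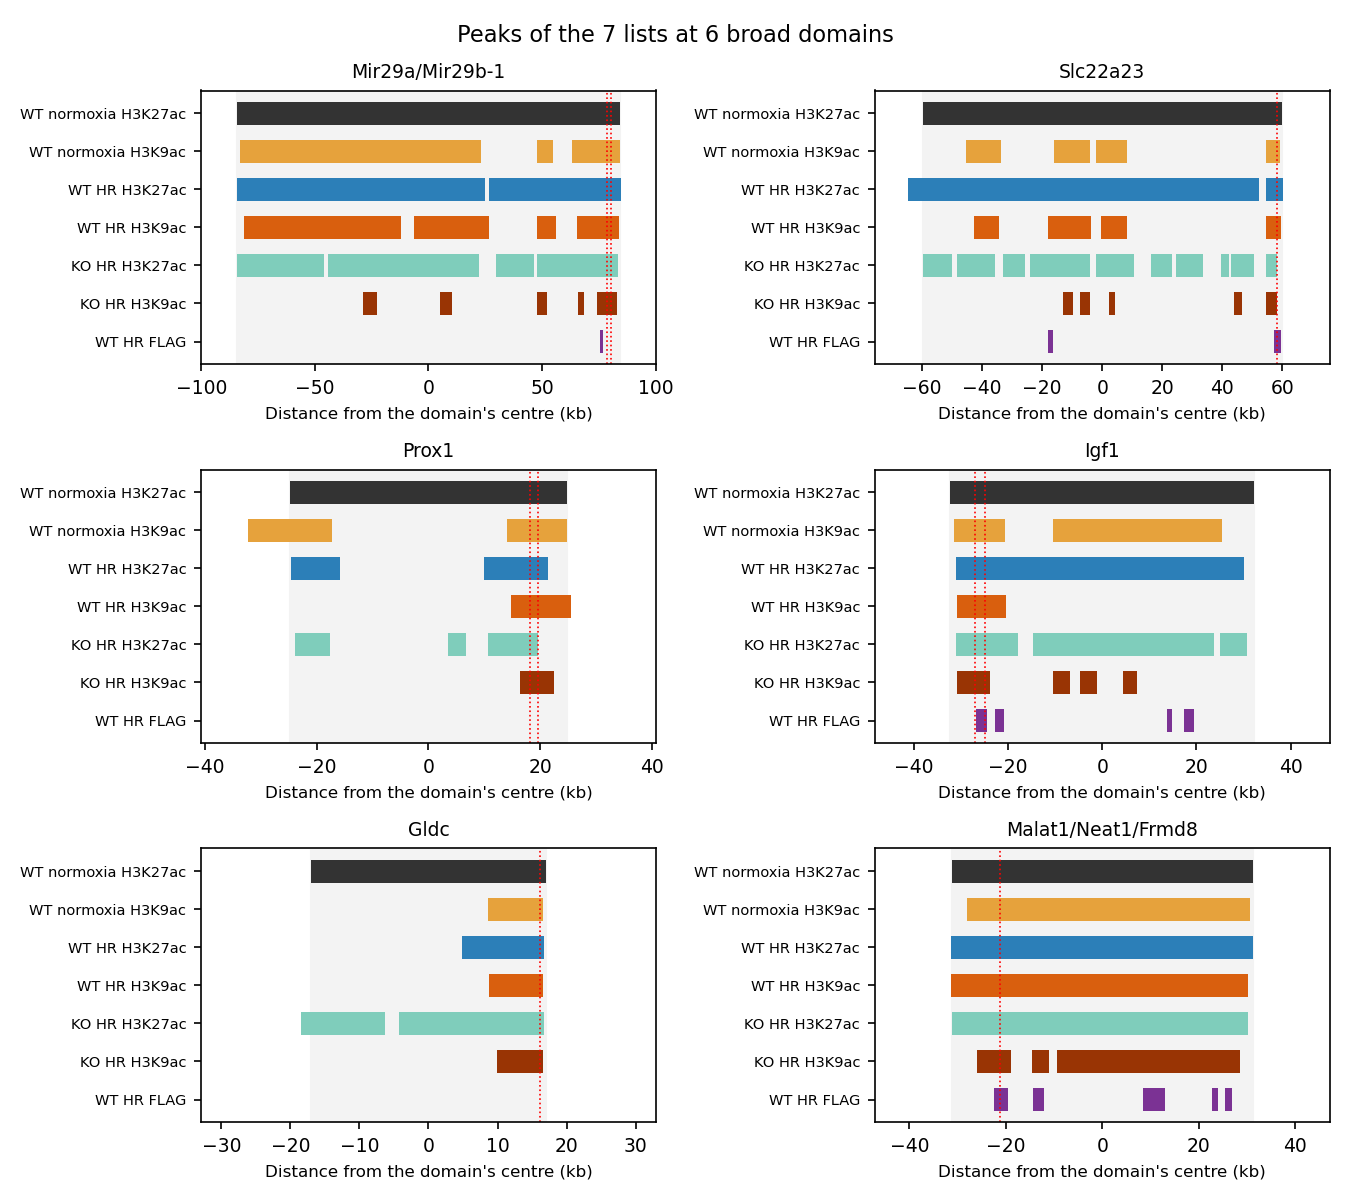
Peaks of the 7 lists at 6 broad domains, one row per list, against the distance from the domain's centre in kb; bars are peaks, drawn up to 15 kb beyond the domain, grey is the domain and dotted red lines are start sites from the RefSeq promoter table. In the Igf1 domain the WT normoxia H3K9ac list has a peak of 35.9 kb that no WT HR H3K9ac peak overlaps, and in the Slc22a23 domain the KO HR H3K27ac list has 10 pieces where the WT HR list has 2.

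The domains overlapped 596 of 21887 coding genes (2.72%), while all peaks of the list together overlapped 4817 (22.0%). A single coding gene was in 378 domains, 2 were in 84, 3 or more were in 25 with a maximum of 6, and 7 domains held none. Coding genes in domains were long, with a median length of 59772 bp beside 17169 bp for all coding genes, and a long gene has more bases on which a region can fall. In 134 domains the whole domain lay within the body of 1 coding gene. Of the 494 domains, 1 lay on chromosome X and none on Y. More than 1 domain lay in 34 genes, with 4 in Zbtb20, a transcriptional repressor, and 3 in Adk, which encodes adenosine kinase. Long noncoding RNA genes lay in 171 domains.

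Start sites could be placed for the 313 domains whose coding genes, within 50 kb, are all in the RefSeq promoter table. Of these, 235 (75.1%) held a coding start site, beside 67.2% of peaks of 20 to 30 kb, 53.4% of 10 to 20 kb and 37.9% of those under 10 kb. The remaining 78 held none, and 58 of these lay wholly inside 1 gene. Where a domain held a single gene with its start site (187 domains), a median of 94.3% of the domain lay on the transcribed side of that site, and more than 50% did so in 178. The highest point of a domain was within 1 kb of a coding start site in 83 of 347 domains that could be placed (23.9%), beside 36.9% in the class of 20 to 30 kb. A typical domain among the 187 thus began near a start site and ran into the gene. Over the 347 placed domains, a different set, the maximum was more often away from a coding start site than within 1 kb of it.

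Most of each domain was again under an H3K27ac peak in HR, and far less of it was under H3K9ac. The median domain was 90.04% covered in WT HR H3K27ac (quartiles 79.3% and 97.0%) and 77.4% in KO HR H3K27ac (65.2% and 87.7%). For H3K9ac the median was 46.6% in WT normoxia (26.5% and 69.7%), 36.6% in WT HR (21.6% and 56.4%) and 19.3% in KO HR (12.2% and 29.4%). Under 10% coverage was found for 1 domain in each HR H3K27ac list, beside 4.01% of all peaks in WT HR and 1.72% in KO HR. It was found for 33 domains in WT normoxia H3K9ac (6.68% of domains, beside 30.9% of all peaks), 36 in WT HR H3K9ac (7.29%, beside 32.5%) and 96 in KO HR H3K9ac (19.4%, beside 29.5%). Peaks of 20 to 30 kb had medians of 86.9% and 69.9% in the HR H3K27ac lists of WT and KO, and of 45.6%, 37.8% and 19.9% in the 3 H3K9ac lists.

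**Figure D2:**
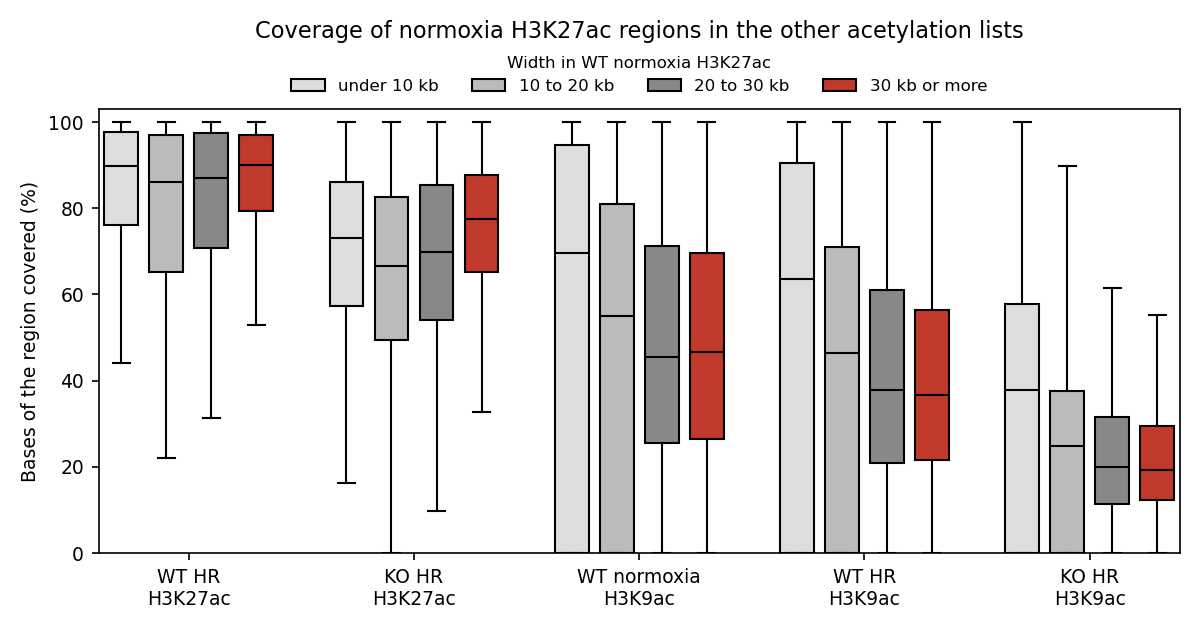
Percent of the bases of each WT normoxia H3K27ac peak that lie under a peak of the other acetylation lists, by width class; boxes give the median and quartiles over 2706, 1898, 557 and 494 regions from the narrowest class to the widest, and whiskers reach the last value within 1.5 box heights. The broad domains (red) have the highest median of the 4 classes in both H3K27ac lists, in WT HR by little (90.04%, beside 89.9% under 10 kb). Their medians in WT HR and KO HR H3K9ac, 36.6% and 19.3%, are the lowest but close to the 37.8% and 19.9% at 20 to 30 kb.

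Many domains lay in several pieces in the other lists. In WT HR H3K27ac, 214 domains (43.3%, 95% Wilson interval 39.0% to 47.7%, counting error over domains only) lay in 2 or more pieces, against 7.00% of all peaks of the normoxia list. In KO HR H3K27ac, 422 domains did so (85.4%, interval 82.0% to 88.3%), against 23.6% of all peaks. The numbers for H3K9ac were 215 in WT normoxia (43.5%, against 5.66%), 239 in WT HR (48.4%, against 6.65%) and 324 in KO HR (65.6%, against 13.9%). A wide region has more room for a gap, since a gap is counted where it has a piece on each side. The domains held 0.104 H3K27ac gaps per 10 kb in WT HR and 0.354 in KO HR, beside 0.0757 and 0.324 in peaks of 20 to 30 kb. One unbroken peak over at least 90% of the domain was found for 183 domains in WT HR H3K27ac (37.0%, beside 45.2% of all peaks) and for 40 in KO HR H3K27ac (8.10%, beside 14.5%). In the H3K9ac lists this held for 23 domains in WT normoxia (22.5% of all peaks) and 7 in WT HR (16.6%), and for no domain in KO HR (0.690%).

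**Figure D3:**
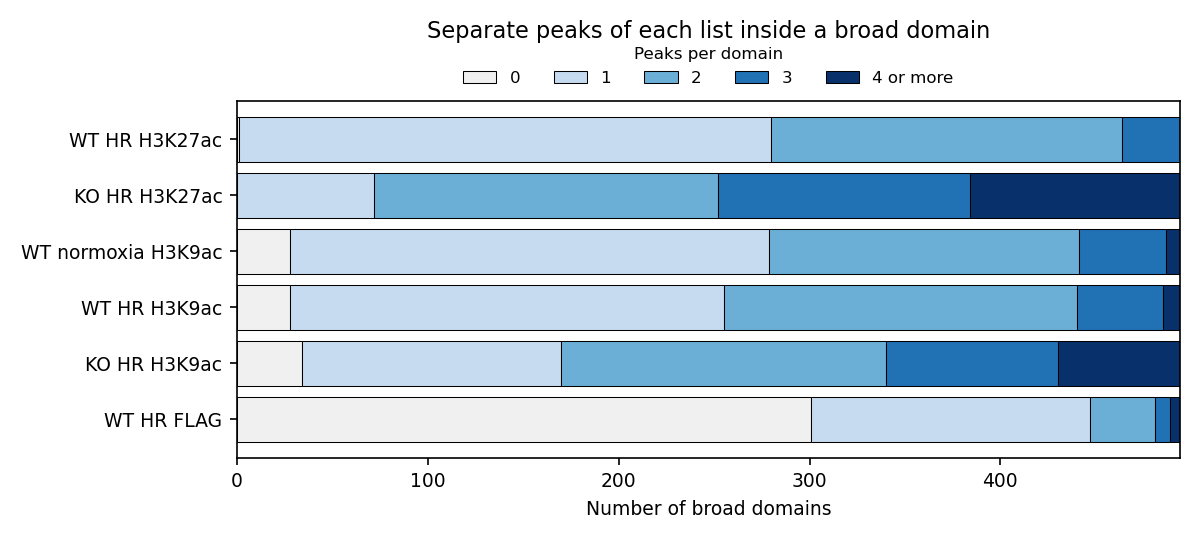
Number of broad domains that hold 0, 1, 2, 3 or at least 4 separate peaks of each list; each bar adds up to 494 domains. The KO HR H3K27ac bar has 422 domains with 2 or more pieces and 110 with at least 4, and the WT HR H3K27ac bar has 214 and none.

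The uncovered bases lay in different places in the different lists. In WT HR H3K27ac, 43.0% of the uncovered bases lay between pieces and the rest at the domain's edges, with 244 inner gaps of a median 3930 bp. In KO HR H3K27ac, 60.3% lay between pieces, with 833 gaps of a median 2875 bp, of which 432 were shorter than 3 kb. In the H3K9ac lists most uncovered bases were at the edges, with 24.9% inside in WT normoxia, 25.7% in WT HR and 37.5% in KO HR. The HR peaks also ran past the old borders by at least 1 kb on one side in 141 domains and on both sides in 11 in WT HR H3K27ac, beside 56 and 1 in KO HR H3K27ac. The highest point of H3K27ac was within 1 kb of its normoxia position in 302 of 493 domains in WT HR (61.3%, beside 81.8% of all peaks) and in 296 of 494 in KO HR (59.9%, beside 79.8%). For H3K9ac the highest point was that close to the normoxia H3K27ac maximum in 45.5% of domains in WT normoxia (beside 70.4%), 36.5% in WT HR (66.1%) and 36.7% in KO HR (66.0%). The shares went down with width in each of these lists and were lowest in the domains among the 4 width classes. A wider region leaves more room between the high points of different lists.

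The KO list covered less of the domains than the WT list for both marks in HR, as it did for peaks of any width. H3K27ac coverage was lower in KO HR than in WT HR in 410 of 494 domains (83.0%, beside 79.4% of all peaks), with a median difference of -9.57 percentage points. It was lower by at least 25 points in 71 domains (14.4%, beside 23.7% of all peaks) and higher by at least 25 points in 1 (0.202%, beside 4.58%). Large losses were thus a smaller share among domains than in the whole list. KO HR had more pieces than WT HR in 344 domains (69.6%, beside 22.7% of all peaks), fewer in 8 and the same number in 142. That share went up with width, from 7.21% under 10 kb through 24.6% to 50.3% at 20 to 30 kb. With coverage rounded to 1 decimal, 249 domains were at least 90% covered in WT HR H3K27ac (248 before rounding). Of the 249, 82 were so in KO HR, 165 were 50% to 90% covered and 2 were under 50%. H3K9ac coverage was lower in KO HR than in WT HR in 427 domains (86.4%, beside 64.8% of all peaks), with a median difference of -15.4 points. It was equal in 26 domains, and in 822 of 2706 peaks under 10 kb, 435 of 1898 of 10 to 20 kb and 79 of 557 of 20 to 30 kb. These ties lower the share over all peaks more than the share of domains. Coverage was lower by at least 25 points in 158 domains (32.0%, beside 34.3% of all peaks) and higher by as much in none (beside 6.10%).

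The WT and KO lists differ in form, which touches each of these comparisons. Peak borders fall on a 10 bp grid in 99.98% to 100.0% of WT peaks and in 0.94% to 1.01% of KO peaks. The smallest gap between peaks was 489 bp in KO HR H3K27ac and 950 bp in WT HR H3K27ac, so the KO list holds breaks shorter than any in the WT list. With peaks less than 3 kb apart joined, 30.4% of domains were split in WT HR H3K27ac and 59.1% in KO HR. The KO H3K9ac list covers 30.4 Mb and the WT HR one 57.8 Mb. When the WT HR H3K9ac list was reduced to the KO length by dropping peaks of low total signal, the median domain was 25.9% covered and 16.6% of domains were split, against 19.3% and 65.6% in KO HR. Dropping whole peaks cannot add pieces, so a split share below that of KO HR was fixed by this setting. Genotype and the way each list was made cannot be told apart.

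**Figure D4:**
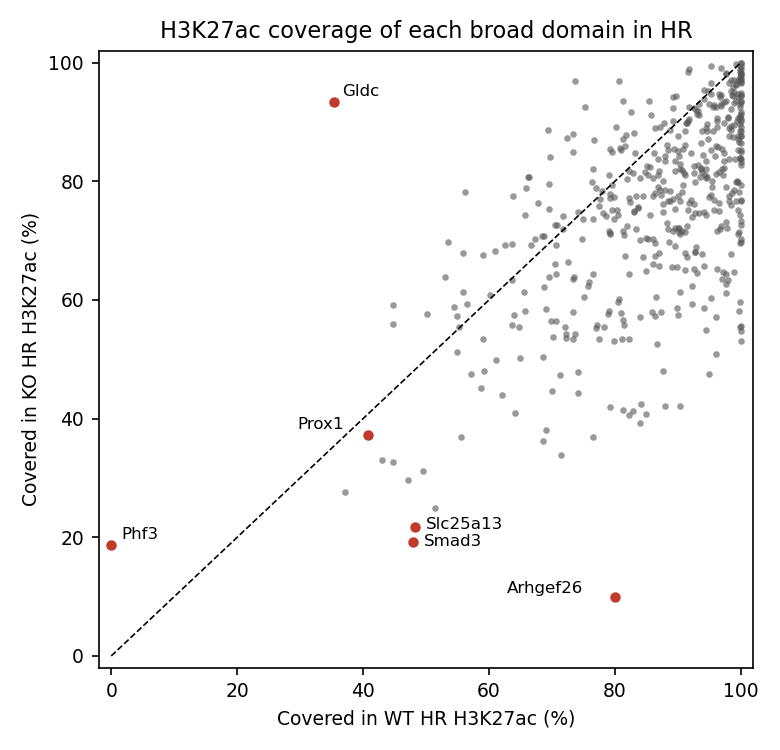
Percent of each broad domain covered in WT HR H3K27ac (horizontal) and in KO HR H3K27ac (vertical); each point is 1 of 494 domains, the dashed line marks equal coverage and 6 named domains are in red. Most points (410) lie below the line, and the Gldc domain, at 35.4% and 93.3%, lies farthest above it.

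The 10 widest domains, all over 100 kb, show the range of these patterns. The widest, of 182960 bp, lies at Zbtb16 (chr9:48654731-48837690), which encodes the zinc finger repressor PLZF. It was 74.3% covered in WT normoxia H3K9ac, 81.4% in WT HR H3K27ac, 53.5% in WT HR H3K9ac, 70.9% in KO HR H3K27ac and 25.4% in KO HR H3K9ac, and it lay in 8 KO H3K27ac pieces against 2 in WT HR. The domain at Egfr (chr11:16734081-16872560), the epidermal growth factor receptor gene, had 98.2% H3K27ac coverage in WT HR and 96.6% in KO HR, with 2 pieces in each. The domain at Slc22a23 (chr13:34227121-34346720), a gene of the organic ion transporter family, had 10 KO pieces, the most of any domain, at 77.5% coverage, against 2 WT HR pieces at 98.2%. The domain at Vmp1, Ptrh2 and Cltc, which also holds Mir21a, had 8 KO pieces at 72.1% and 2 WT HR pieces at 90.2%. The Sorbs2 domain was 100.0% covered in 1 piece in WT HR H3K27ac and 98.1% in KO HR, with 40.9% and 40.7% H3K9ac in the WT normoxia and WT HR lists. The others (Zbtb20, Adk/Ap3m1, Mtss1 and Ptprj) had 94.6% to 98.9% in WT HR H3K27ac and 89.5% to 94.7% in KO HR. These 10 domains were thus largely covered in both HR H3K27ac lists, with lower coverage in KO HR in each. The number of pieces was the same in both lists at Egfr and Mtss1 and higher in KO HR in the rest.

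A few domains had little H3K27ac in HR. The domain at Phf3 (chr1:30799331-30854010), which encodes a PHD finger protein, had no peak in any other WT list and 2 pieces covering 18.7% in KO HR H3K27ac. Its normoxia maximum signal was 15.7, near the lowest of all domains. The domain at Prox1 (chr1:190126531-190176040), a homeobox factor of hepatocyte fate, was 40.8% covered in WT HR H3K27ac and 37.2% in KO HR. Its middle was open in WT HR, between a piece of 8.77 kb at one end and one of 11.4 kb at its start sites. The domains at Fxr1 and Jade1 were 43.0% and 44.7% covered in WT HR H3K27ac and 33.0% and 32.7% in KO HR. Coverage of these domains was low in both genotypes. The Gldc domain (chr19:30142281-30176230) differed between them. Gldc encodes a subunit of the glycine cleavage system, and its domain was 35.4% covered in WT HR and 93.3% in KO HR.

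The lowest KO coverage was in the first of 2 domains in Arhgef26 (chr3:62394031-62425960), a guanine nucleotide exchange factor gene, with 80% in WT HR H3K27ac and 9.9% in KO HR. The neighbouring Arhgef26 domain was 65.6% and 61.4% covered, so the difference was not shared along the gene. The domain at Smad3, which encodes a signal transducer of the TGF-beta pathway, was 48.0% covered in WT HR and 19.2% in KO HR. Slc25a13, which encodes a mitochondrial aspartate-glutamate carrier, has 2 domains, of which the one of 44630 bp was 48.3% and 21.7% covered and the wider one 83.7% and 75.5%. The domain at Atp6v0e was 51.4% and 24.9% covered. The lower domain of each of these genes lay under 25% in KO HR H3K27ac. Normoxia maximum signal was 18.9 in the first Arhgef26 domain and 12.6, the lowest of all domains, in the Slc25a13 domain of 44630 bp. At Smad3 and Atp6v0e it was 64.7 and 83.3, beside a median of 72.8 over all domains. No domain had more than 3 pieces in WT HR H3K27ac, and 30 domains had 3, at 44.8% to 90.4% coverage. The widest of these 30 (Ern1, Lgr4, Psd3, Arhgap42, a second Zbtb20 domain and Acaca) were 70.2% to 84.4% covered. Those at Osbpl8, Mrtfb and Gramd3 had 8, 7 and 7 pieces in KO HR, against 1, 2 and 2 in WT HR.

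H3K9ac within the domains was concentrated at start sites, in every list. Of domain bases within 1 kb of a coding start site, 91.8% lay under H3K9ac in WT normoxia, 91.2% in WT HR and 77.0% in KO HR. At 5 to 10 kb the values were 57.9%, 44.5% and 17.3%, and beyond 40 kb they were 37.9%, 29.1% and 13.9%. H3K27ac declined far less with distance, from 96.5% to 84.6% in WT HR and from 94.4% to 72.6% in KO HR. The 357 start sites in placed domains were themselves covered by H3K9ac in 93.0% of cases in WT normoxia (Wilson interval 89.9% to 95.2%), 92.7% in WT HR (89.54% to 94.98%) and 81.5% in KO HR (77.2% to 85.2%). The H3K9ac lists thus differed by more points at 5 to 10 kb from a start site than within 1 kb of it.

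**Figure D5:**
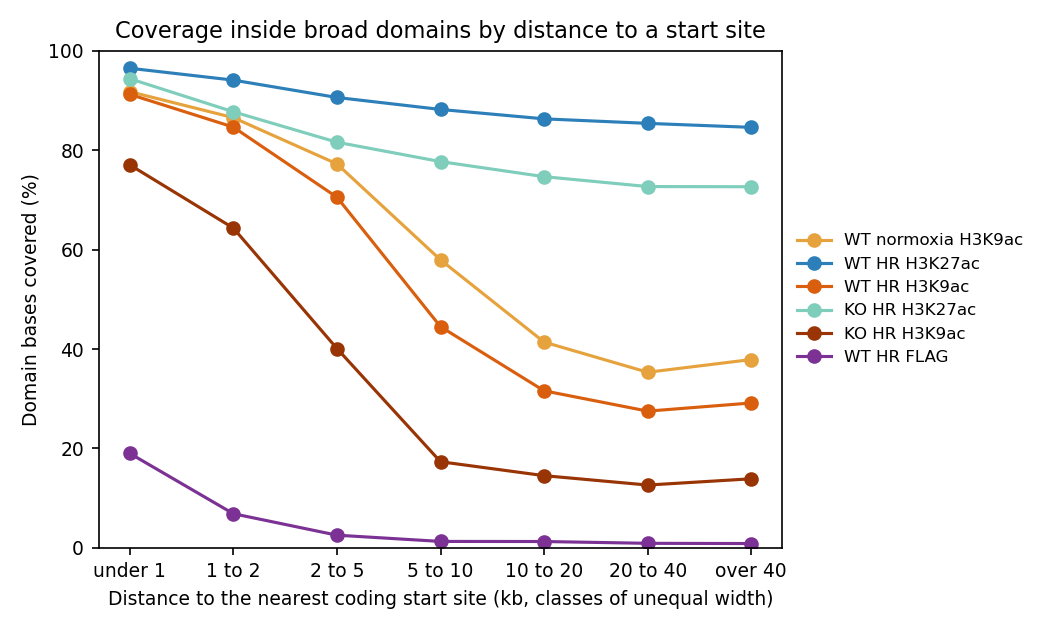
Percent of domain bases under a peak of each list, by distance to the nearest coding start site in kb (classes of unequal width), over the 313 domains with placed start sites. The 3 H3K9ac lines and the FLAG line drop steeply with distance, while WT HR H3K27ac goes from 96.5% to 84.6%.

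Domains without a start site had less H3K9ac. Among the 78 without one, 17 were under 10% covered in WT normoxia H3K9ac (21.8%), 19 in WT HR (24.4%) and 31 in KO HR (39.7%). Among the 235 with one, the counts were 4 (1.70%), 5 (2.13%) and 38 (16.2%). Median H3K27ac coverage was close between them, at 90.2% with and 87.3% without a start site in WT HR, and 77.6% and 74.2% in KO HR. Among the widest domains with no H3K9ac peak in either WT list were those at Phf3, Kansl1, Ghr, Gphn and Slc25a13. The wider of 2 Ghr domains, in the growth hormone receptor gene (chr15:3422771-3474540), was 75.3% covered in WT HR H3K27ac and 92.5% in KO HR with no H3K9ac peak in any of the 3 lists. The Gphn domain, in the gene of the scaffold protein gephyrin, was 94.5% and 54.9% covered, also with none. These are broad H3K27ac regions with no H3K9ac call. Normoxia H3K27ac maximum signal was 15.7 at Phf3, 37.2 at Kansl1, 54.9 at Ghr, 25.8 at Gphn and 12.6 at Slc25a13. All lie below the median of 72.8 over all domains.

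Between WT normoxia and WT HR, 77 domains had H3K9ac coverage lower by at least 25 points (15.6%, beside 12.9% of all peaks) and 15 higher by as much (3.04%, beside 6.35%). The median difference was -4.62 points. The following domains were named after their values were seen. The domain at Insr, the insulin receptor gene, was 85.8% covered by H3K9ac in WT normoxia and 27.4% in WT HR. The domain at Ddc, which encodes aromatic amino acid decarboxylase, went from 98.9% to 30.2% and that at Septin9 from 100.0% to 45.5%. In the other direction, the domain at Wnk1, a kinase gene, was 31.8% covered in WT normoxia, 93.0% in WT HR and 37.8% in KO HR.

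The domain at Igf1 (chr10:87855871-87920470), which encodes insulin-like growth factor 1, a hormone secreted by the liver, shows such a difference in detail. H3K9ac covered 72.3% of it in WT normoxia, 16.3% in WT HR and 26.7% in KO HR, while H3K27ac covered 94.7% in WT HR and 88.5% in KO HR. The peak of 10.8 kb at its start sites had a counterpart of 10.6 kb in WT HR and of 7.05 kb in KO HR. The inner peak of 35.9 kb had none in WT HR and 3 short ones of 2.95 to 3.66 kb in KO HR. The domain shared by Klkb1 and F11 (chr8), which encode plasma prekallikrein and coagulation factor XI, had 51.1% H3K9ac in WT normoxia and no H3K9ac peak in WT HR or KO HR, with H3K27ac at 93.7% and 82.1%.

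Promoters from RefSeq (GRCm38.p6, 250 bases before to 50 bases after the start) were searched for 7 short motifs on both strands. The domains hold 482 promoters of 374 coding genes, of 21238 promoters in the table. AP-1 (TGANTCA) was in 8.71% of promoters in domains, 5.21% of those in narrower peaks and 6.99% of all. CEBP (TTGCNNAA) was in 9.96%, 8.56% and 10.2%, FOXA (TGTTTAC) in 2.90%, 2.66% and 2.999%, and HNF4 (CAAAGTCCA) in 0.415%, 0.569% and 0.452%. The TATA box (TATAAA) was in 8.92%, 6.94% and 12.6% and the E-box (CACGTG) in 6.85%, 10.1% and 7.83%, while the palindromic HNF1 motif was in none of the 482 and in 1 of all. CpG-rich promoters (GC of 50% or more and a CpG ratio of 0.6 or more) made up 65.8% in domains, 70.9% in narrower peaks and 45.1% of all. A match is a run of letters and not a shown binding site.

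The promoters of 6 genes of secreted liver proteins are shown, some with a start site under H3K9ac in HR and some without. Apoa1 and Apoa4 encode apolipoproteins of high-density lipoprotein and chylomicrons and share 1 domain. The start site of Apoa1 (chr9:46228380-46228679, plus strand) lay under a peak in all 6 other lists, FLAG included, and that of Apoa4 (chr9:46240594-46240893, plus strand) under WT normoxia H3K9ac and both HR H3K27ac lists but under neither HR H3K9ac list nor FLAG. Those of F11 (chr8:45261982-45262281, minus strand) and Klkb1 (chr8:45294786-45295085, minus strand) lay under both HR H3K27ac lists and neither HR H3K9ac list. That of F11 was also under WT normoxia H3K9ac. Those of Fgb (chr3:83049814-83050113, minus strand), the fibrinogen beta chain gene, and Igf1 (chr10:87860861-87861160, plus strand) lay under a peak of every acetylation list. Sequences run 5′ to 3′ on the gene's strand and capitals mark matches to the motifs above: FOXA and CEBP in F11, those and a TATA box in Klkb1, CEBP and AP-1 in Fgb, AP-1 in Igf1, and no match in Apoa1 or Apoa4.
Apoa1 promoter: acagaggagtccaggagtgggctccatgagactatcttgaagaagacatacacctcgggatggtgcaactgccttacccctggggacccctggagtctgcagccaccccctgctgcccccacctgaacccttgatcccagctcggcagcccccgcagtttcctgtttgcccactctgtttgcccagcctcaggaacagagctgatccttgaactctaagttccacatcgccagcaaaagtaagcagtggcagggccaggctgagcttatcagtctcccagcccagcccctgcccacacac
Apoa4 promoter: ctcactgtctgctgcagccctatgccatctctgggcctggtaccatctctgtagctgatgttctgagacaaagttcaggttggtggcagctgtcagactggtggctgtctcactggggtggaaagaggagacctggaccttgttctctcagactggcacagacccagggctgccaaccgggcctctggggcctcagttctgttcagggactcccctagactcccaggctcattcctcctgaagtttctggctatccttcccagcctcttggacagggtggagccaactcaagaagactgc
F11 promoter: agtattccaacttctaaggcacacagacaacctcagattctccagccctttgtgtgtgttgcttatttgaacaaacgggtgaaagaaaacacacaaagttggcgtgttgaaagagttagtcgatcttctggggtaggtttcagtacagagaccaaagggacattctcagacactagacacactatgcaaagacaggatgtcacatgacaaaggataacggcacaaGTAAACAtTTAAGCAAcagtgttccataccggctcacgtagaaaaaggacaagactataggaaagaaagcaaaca
Klkb1 promoter: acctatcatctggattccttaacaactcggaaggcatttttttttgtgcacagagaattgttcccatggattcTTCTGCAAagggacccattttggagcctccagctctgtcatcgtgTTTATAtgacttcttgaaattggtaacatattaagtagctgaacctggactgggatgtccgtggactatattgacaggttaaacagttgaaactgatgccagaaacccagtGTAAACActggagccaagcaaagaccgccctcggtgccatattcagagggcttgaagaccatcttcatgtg
Fgb promoter: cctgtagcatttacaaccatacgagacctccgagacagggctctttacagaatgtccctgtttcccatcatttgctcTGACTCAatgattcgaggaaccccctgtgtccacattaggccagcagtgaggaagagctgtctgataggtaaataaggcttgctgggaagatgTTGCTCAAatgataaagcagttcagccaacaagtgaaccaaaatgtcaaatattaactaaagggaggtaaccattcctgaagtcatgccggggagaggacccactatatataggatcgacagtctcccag
Igf1 promoter: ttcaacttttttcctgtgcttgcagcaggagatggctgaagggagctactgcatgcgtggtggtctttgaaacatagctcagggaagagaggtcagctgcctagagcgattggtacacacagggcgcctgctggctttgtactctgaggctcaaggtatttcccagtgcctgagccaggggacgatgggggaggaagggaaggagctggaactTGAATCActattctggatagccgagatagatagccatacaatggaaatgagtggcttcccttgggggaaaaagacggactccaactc

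FLAG peaks, which the samples label as Acly, lay in 193 domains in WT HR (39.1%, Wilson interval 34.9% to 43.4%), beside 21.8% of all peaks of the list. The share was 27.1% for peaks of 20 to 30 kb, 21.9% for 10 to 20 kb and 17.5% under 10 kb, but per Mb the order was the opposite, with 11.02 FLAG peaks in domains and 13.7, 17.4 and 26.9 in the narrower classes. The domains held 259 of the 3666 FLAG peaks (7.07%), with a median width of 1860 bp, so they covered 2.09% of domain bases. Of the FLAG peaks in domains, 98.8% overlapped a WT HR H3K27ac peak and 87.6% a WT HR H3K9ac peak. Those lists covered 86.6% and 40.8% of all domain bases. The measures are unlike for both marks, since a whole FLAG peak meets a peak more easily than a single base does. Much of the H3K27ac overlap thus follows from taking FLAG peaks inside these domains, and the share over the whole FLAG list was not computed. Where start sites were placed, 77 of 184 FLAG peaks in domains lay within 1 kb of one (41.8%), beside 43.8% in the whole FLAG list. A FLAG peak lay over 95 of the 357 start sites (26.6%).

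Most FLAG peaks in 1 domain, 5, were found at Malat1, Neat1 and Frmd8 (chr19:5792641-5855030), where Malat1 and Neat1 encode abundant nuclear noncoding RNAs. Both marks covered nearly all of this domain in WT, with H3K9ac over 94.3% in WT normoxia, 98.4% in WT HR and 77.8% in KO HR, and H3K27ac over 100.0% in WT HR and 98.3% in KO HR. It holds the widest KO HR H3K9ac peak, of 37.9 kb. The domains at Shb, Scp2 (sterol carrier protein), Igf1 and Gucd1/Snrpd3 held 4 FLAG peaks each, which covered 8.7%, 9.9%, 11.7% and 24.96% of their bases. Another 8 domains held 3, and in the widest of them, at Mtss1, these covered 3.4% of the bases.

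The labelled cell type was checked against marker genes. Of 21 matched hepatocyte markers, 5 were in a domain (Apoa1, Apoc3, Fgb, Fga and Cps1) and 13 in any peak. None of 14 markers of Kupffer cells, 12 of liver endothelium, 12 of stellate cells, 8 of cholangiocytes or 8 of lymphocytes lay in domains. In any peak were 1, 1, 0, 1 and 0 of them, in that order. Of all coding genes, 2.72% were in a domain and 22.0% in any peak. At 2.72%, lists of 8 to 14 genes would hold few or no members in a domain. Absence from domains thus says little about the cell type.

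Among 30 liver transcription factors, 7 were in a domain (23.3%, beside 2.72% of coding genes): Foxa2, Nr1h4, Nr5a2, Prox1, Rxra, Nfia and Nfib. The Foxa2 domain, at a pioneer factor gene of the liver, was 98.2% covered in WT HR H3K27ac and 88.9% in KO HR, with H3K9ac at 66.9% in WT normoxia, 80.2% in WT HR and 42.1% in KO HR. The Nr1h4 domain, at the bile acid receptor gene, had 98.5% and 92.2% H3K27ac in WT and KO HR. The Rxra domain, of 82460 bp, at a gene for the partner of many nuclear receptors, was 100.0% and 88.4% covered, with H3K9ac at 85.0% in WT normoxia, 68.1% in WT HR and 15.9% in KO HR. The Nfib domain had 88.4% and 76.7% H3K27ac and no KO HR H3K9ac peak. Of the 7, Prox1 alone was under 50% covered in the HR H3K27ac lists.

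Genes of secreted liver proteins were in domains in similar shares, with 6 of 33 complement and coagulation genes (among them F11, Fga, Fgb, Klkb1 and Masp1), 5 of 22 lipid transport genes (among them Apoa1, Apoa4, Apoc3 and Abca1) and 3 of 19 serum protein genes (Gc, Itih2 and Trf), or 18.2%, 22.7% and 15.8% beside 2.72% of all coding genes. Of 24 acute phase genes 1 was in a domain (Stat3). The fibrinogen domain, with Fga and Fgb, had 53.0% H3K27ac in WT HR and 63.8% in KO HR, and H3K9ac of 67.8% in WT normoxia, 25.5% in WT HR and 21.6% in KO HR. The domain of Apoa1, Apoa4 and Apoc3 had 82.4% and 76.5% H3K27ac, and H3K9ac of 86.4%, 51.0% and 26.9%. The Gc domain, at the vitamin D binding protein gene, had 100.0% and 83.2% H3K27ac and 63.1%, 64.1% and 44.5% H3K9ac. The fibrinogen domain was thus the one of these 3 with more H3K27ac in KO HR than in WT HR.

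Genes of metabolism in domains were 4 of 22 for cholesterol synthesis (among them Fdft1, Sqle and Sc5d), 4 of 19 for fatty acid synthesis (Acaca, Elovl6, Gpam and Dgat2), 4 of 21 for fatty acid oxidation (among them Hadha, Hadhb and Acaa2) and 5 of 27 for glucose and amino acid metabolism (Pcx, Slc2a2, Got1, Cps1 and Igf1). These are 18.2%, 21.1%, 19.05% and 18.5% of the list members, beside 2.72% of all coding genes. In any peak were 15, 18, 9 and 17 members (68.2%, 94.7%, 42.9% and 63.0%), beside 22.0% of all coding genes. ACLY supplies acetyl-CoA to the first pair of these pathways. H3K27ac at Sqle, which encodes squalene epoxidase, was 92.2% in WT HR and 59.4% in KO HR. At Fdft1 and Sc5d it was higher in KO HR, with 80.8% and 85.6% at Fdft1 and 79.5% and 85.0% at Sc5d. At Acaca, which encodes acetyl-CoA carboxylase, it was 70.2% and 53.8%, and at Elovl6, a fatty acid elongase gene, 69.7% and 84.1%. These lipid genes thus lay on both sides of equality. At Pcx, pyruvate carboxylase, it was 55.8% in 2 pieces and 61.4% in 6 pieces. At Cps1, which encodes the first enzyme of the urea cycle, 1 of its 2 domains had no H3K9ac peak in the 3 lists and 98.6% and 78.0% H3K27ac.

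In the other lists, 4 of 25 cytoskeleton genes were in a domain (Actn4, Myh9, Cald1 and Vcl), 3 of 22 histone acetylation genes (among them Kat2b and Ncor1), 2 of 24 detoxification genes (Por and Aldh1a1), 2 of 16 long noncoding RNA genes (Malat1 and Neat1), 1 of 31 stress response genes (Gclc) and none of 24 immediate early genes, of which 13 were in a peak of some width. As shares these are 16%, 13.6%, 8.33%, 12.5%, 3.23% and 0, beside 2.72% of all coding genes in a domain and 22.0% in any peak. The Myh9 domain, at the nonmuscle myosin heavy chain gene, was the most evenly covered of the cytoskeleton group, with H3K27ac at 95.3% and 94.7% in WT and KO HR and H3K9ac at 93.8%, 93.7% and 64.2%. The domain at Kat2b, which encodes the acetyltransferase PCAF, had 100.0% and 94.9% H3K27ac. That at Ncor1, a corepressor gene, had 97.6% in 1 piece in WT HR and 64.3% in 4 pieces in KO HR.

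Peaks of 30 kb or more in the other lists mostly lay on these domains. WT HR H3K27ac had 366 such peaks, of which 307 (83.9%) overlapped a domain, and KO HR H3K27ac had 134, of which 130 (97.0%) did. The WT normoxia and WT HR H3K9ac lists had 90 and 39, of which 70 and 35 did, and KO HR H3K9ac had 1, which did. At most 1 such peak per list overlapped no WT normoxia H3K27ac peak of any width. An overlap of 1 base counts, so a wide peak meets a domain more easily than a narrow one. The share for narrower peaks of these lists is not given here.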

How the data were processed

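Peak lists of 7 CUT&RUN samples were used, each with 1 library. The authors deposited, for each peak, its position, a total signal, a maximum signal and the region of the maximum, on a scale of unknown normalization. Signal served to rank peaks within a list, and no signal was compared between lists. Per the submitters' processing notes, the genome build is mm10 and the tools named are Trimmomatic and kallisto. The aligner and peak caller are not given in the sources used here. Of the other samples, 16 RNA libraries, 3 IgG controls and a WT normoxia FLAG list of 1 peak entered no comparison.

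Domains were all WT normoxia H3K27ac peaks of at least 30000 bp. The percent of each domain under peaks of every other list and the number of separate pieces (overlap of at least 1 base) were computed in Python 3.11.15 with pandas 2.3.3, numpy 2.4.6 and scipy 1.17.1. The step was tested on 500 simulated regions, all recovered. Genes came from RefSeq (GRCm38.p6). Of 21887 coding genes, 79.9% had an entry in its promoter table. Shares carry 95% Wilson intervals, which cover counting error only. Named domains are the 10 widest, the 6 least covered in each HR H3K27ac list and in WT normoxia H3K9ac, the 6 with most pieces in each HR H3K27ac list, the 6 with most FLAG peaks, and those holding listed genes. The domains and gene lists were chosen with earlier results of these data known. Alternatives changed the minimum width, the peaks counted, the joining of near pieces and the gene rule. Some of the domains and genes that these rules name are not reported here.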

Additional observations from a re-analysis of the deposited data

Results flagged for a closer look

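The WT normoxia FLAG list, which enters no comparison above, holds 1 peak. It spans 38570 bp (chr9:2999971-3038540), and no peak of the other lists lies in it. No FLAG peak of that list therefore lies in a domain.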

How the results depend on the processing

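No paired analysis was possible because there is 1 library per antibody and condition. Of 70 alternatives, 35 stayed within the 95% interval of the value (or within 1.5 times a count) and 35 did not; the cause was not tested. A minimum width of 20 kb gave 1051 regions and one of 40 kb gave 273. At 20 kb the share split was 27.3% in WT normoxia H3K9ac, 29.9% in WT HR H3K27ac, 30.9% in WT HR H3K9ac, 72.5% in KO HR H3K27ac and 47.9% in KO HR H3K9ac, KO HR H3K27ac median coverage was 74.5% and the share with a FLAG peak 32.7%. At 40 kb the share split was 53.5%, 57.1% and 73.6% in the 3 H3K9ac lists (WT normoxia, WT HR, KO HR), and KO HR H3K27ac coverage was 79.8%.

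With peaks of at least their list's median total signal, median coverage was 39.1%, 27.2% and 14.0% in those H3K9ac lists and 73.5% in KO HR H3K27ac. The share split was then 24.9%, 23.7% and 33.6% for H3K9ac and 29.6% and 72.7% for WT and KO HR H3K27ac, and the share with a FLAG peak was 24.1%. Joining pieces under 1000 bp apart gave 80.6% split in KO HR H3K27ac. Joining those under 3000 bp apart gave 37.4%, 40.9% and 60.5% for H3K9ac and 30.4% and 59.1% for WT and KO HR H3K27ac. Reducing WT lists to the KO covered length was chosen after seeing the data. It gave H3K9ac coverage of 33.8% in WT normoxia and 25.9% in WT HR, with 17.0% and 16.6% split, and for WT HR H3K27ac 89.5% and 39.9%, within their intervals. Genes wholly inside a domain numbered 126, and all annotated genes overlapping one 915. In each of these settings the share split was higher in KO HR than in WT HR for both marks. With the reduced WT lists this was fixed beforehand, since dropping whole peaks cannot add pieces. Depth is unknown, so a missing peak does not show a missing mark.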
